A study of Mus musculus with 28 samples.

Results

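Whole-brain RNA of alpha7 +/T mice killed 1 hour after a nicotine-induced seizure was set against that of beta4 null mice killed at the same time after their seizure. The comparison rests on 5 seized alpha7 +/T and 4 seized beta4 null mice, chosen by the source label of each sample, out of 28 mice in the series, with 1 Affymetrix U74Av2 array per mouse. The alpha7 +/T mice were heterozygous for the L250T allele of the alpha7 nicotinic receptor subunit, and the beta4 null mice had no functional copy of the beta4 subunit gene; the labels give the C57BL/6J strain for all. The seized alpha7 +/T mice comprised 3 females and 2 males, all of 8 weeks, and the seized beta4 null mice comprised 1 female and 3 males, 3 of them of 8 weeks and 1 of 7 weeks. For orientation, values are also given for 5 untreated alpha7 +/T mice (4 of 6 weeks and 1 of 8 weeks) and 5 untreated beta4 null mice (6 to 9 weeks). Values of 3 seized wild-type mice (7 or 8 weeks) and 6 untreated wild-type mice (6 to 9 weeks) are given as well. Nicotine was injected intraperitoneally at a dose that differed by genotype and was set so that the seizures scored alike, so genotype and dose cannot be told apart here. The labels give no amounts, and no group was injected without a seizure. Both alleles were present in every cell from conception, so an acute effect of the receptor and a lifelong one cannot be told apart either.

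Nicotinic acetylcholine receptors are pentameric cation channels opened by acetylcholine and by nicotine. Alpha7 subunits form homomeric channels that are abundant in hippocampus and cortex, and the L250T substitution in the channel lining makes them open at lower agonist levels and desensitise slowly; beta4 subunits assemble mainly with alpha3 and are dense in the medial habenula and in autonomic ganglia. Alpha7 +/T mice are known for a raised, and beta4 null mice for a lowered, sensitivity to nicotine-induced seizures. A seizure drives calcium entry and MAP kinase signalling in neurons, and within an hour a wave of early genes follows, including transcription factors such as Fos and phosphatases such as Dusp6 that switch the kinases off again.

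Values are MAS5 signals, a summary of probe brightness for each probe set, scaled so that the mean of each array without its lowest and highest 2% was 150. The arrays fell into classes by the log2 ratio of the Gapdh control signal at the 3 prime end over the 5 prime end, a sign of how far the labelled RNA reached: 3 of 5 seized alpha7 +/T and 2 of 4 seized beta4 null arrays had a ratio below 0.5. Rank correlations among the 9 arrays ran from 0.937 to 0.976 within a class and from 0.841 to 0.901 between classes, whatever the genotype. Class was therefore a term in the fit, and values within each class are given for the main genes. All wild-type arrays, seized and untreated, had a ratio above 0.5. Their raw signals are thus not directly comparable with those of mutant groups that mix classes. The Gapdh ratio differed between the genotypes by -0.27 (exact permutation test, two-sided p = 0.643) and the log2 of the array median by 0.17 (p = 0.127). The order of Xist and Eif2s3y signals matched the labelled sex on 9 of 9 seized mutant arrays and on 26 of all 28 arrays. The exceptions were untreated beta4 null mouse 3 and untreated wild-type mouse 5. The latter is labelled female and had Xist at 1.44 and Eif2s3y at 89.1. Fits with sex as a term used the labelled sex. Seized alpha7 +/T mouse 2 stood apart in pituitary hormone signals, with 6110 for growth hormone (Gh) and 4240 for prolactin (Prl), against at most 221 and 108 on the other 8 seized mutant arrays.

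Of 7350 probe sets tested with limma, 9 passed an adjusted p of 0.05 (0.122%), 5 higher (0.068%) and 4 lower (0.0544%) in seized alpha7 +/T than in seized beta4 null mice. The higher ones were Spg21, Klf10, Nfe2l2, Antkmt and probe set 102870_at, which the annotation pairs with several genes. The lower ones were Kcnk1, Ginm1, Dusp6 and probe set 96215_f_at, for which no gene was listed. At an unadjusted p below 0.05 there were 657 probe sets (8.94%). The median difference over all probe sets was 0.02 on the log2 scale; after median centring it was -0.13, and 3 probe sets were then called higher and 21 lower. In whole brain, fewer cells of a type and less RNA per cell cannot be told apart. In 8 of the 9 probe sets no seized alpha7 +/T value overlapped a seized beta4 null value, and such separation was found for 176 of all probe sets (2.39%).

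**Figure D1:**
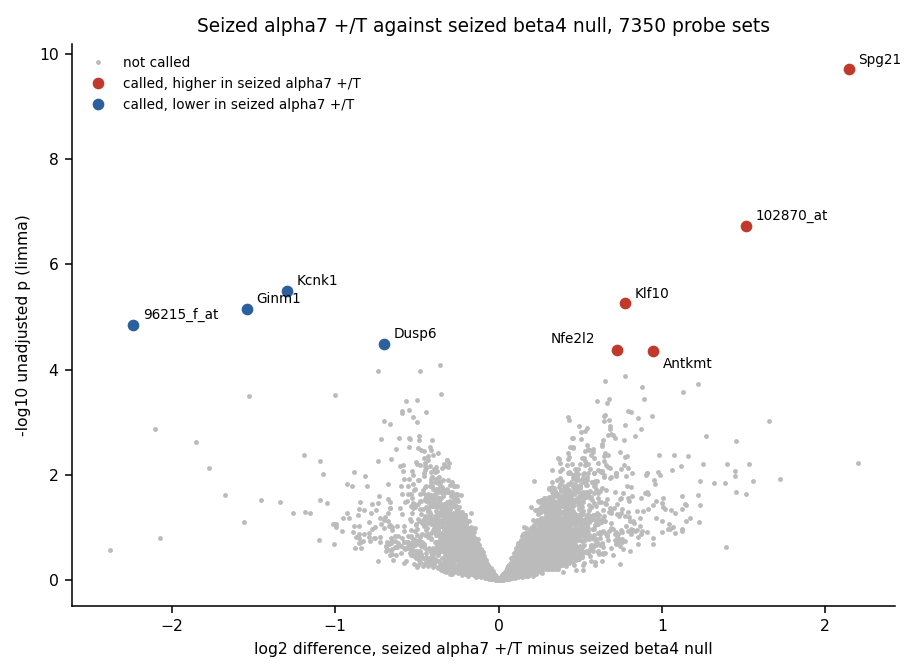
Each point is a probe set, with the log2 difference of seized alpha7 +/T minus seized beta4 null mice on the x axis and -log10 of the unadjusted limma p on the y axis. Red points were called higher and blue points lower at an adjusted p of 0.05; Spg21 stands highest, at a log2 difference of 2.14, and most of the 7350 probe sets lie in the grey mass near 0.

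Among the higher genes were 2 transcription factors. Klf10 is a zinc-finger repressor of the Krüppel-like family and an immediate early gene of TGF-beta signalling. Its signal was 307.6, 296, 272.9, 286.4 and 282.2 in the 5 seized alpha7 +/T mice, against 137.5, 224, 189.2 and 134.6 in the 4 seized beta4 null mice. The alpha7 +/T mice lay in a narrow band above all beta4 null mice, which were spread. The log2 difference was 0.77 ± 0.14 (SE), a 1.71-fold higher level (limma, adjusted p = 0.0101), and it was 0.73 among low-ratio and 0.83 among high-ratio arrays. The second Klf10 probe set, 99603_g_at, had a difference of 0.65 that did not pass (adjusted p = 0.0878). Without seized alpha7 +/T mouse 4, beta4 null mouse 1 or beta4 null mouse 4 the Klf10 call was lost, with adjusted p-values of 0.051, 0.118 and 0.0683 and differences of 0.75, 0.64 and 0.69.

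In untreated mice the order of Klf10 was turned round: signals were 110.5 to 126.7 in alpha7 +/T mice, against 129.1 to 208.6 in beta4 null mice, again without overlap, with a difference of -0.50 (adjusted p = 0.0147). Untreated wild-type mice had 139.5 to 179 and seized wild-type mice 212.7 to 218, all on high-ratio arrays. Between seized and untreated mice, Klf10 rose by 1.28 ± 0.13 in alpha7 +/T (adjusted p = 7.01e-07), and its difference in beta4 null mice was 0.01 ± 0.14; 13.3% of probe sets were called between seized and untreated alpha7 +/T mice (7.8% higher, 5.51% lower in seized). Between seized and untreated beta4 null mice 0.0544% were called, all higher, and 2.88% had an unadjusted p below 0.05. Most untreated alpha7 +/T mice were 6 weeks old and all seized ones 8 weeks, so age moved with seizure in that genotype. The part of age in these shares was not tested. The change in the Klf10 genotype difference, seized minus untreated, was 1.27 ± 0.19 (limma, adjusted p = 0.00193).

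Nfe2l2 encodes NRF2, a bZIP factor that switches on antioxidant and detoxification genes and is held down by KEAP1. Signals were 140.7, 171.1, 121.1, 167.9 and 170.5 in seized alpha7 +/T mice, against 98.49, 82.18, 92.08 and 103.5 in seized beta4 null mice. The lowest alpha7 +/T mouse was above the highest beta4 null mouse. The difference was 0.73 ± 0.15 (1.65-fold, adjusted p = 0.0357), with 0.67 among low-ratio and 0.79 among high-ratio arrays. In untreated mice it was -0.38 (adjusted p = 0.068), and the change in the difference was 1.11 (adjusted p = 0.0234). The seized call was lost in 8 of 19 fits that left out 1 mouse, with differences from 0.67 to 0.79, and with sex as a further term (adjusted p = 0.0588), sex being unbalanced between the genotypes.

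Spg21 showed the largest difference of the named genes. It encodes maspardin, an endosomal protein whose loss causes Mast syndrome, a form of hereditary spastic paraplegia. Its signal was 268.5, 126.6, 173.7, 475.9 and 514.2 in seized alpha7 +/T mice, against 48.67, 54.7, 81.41 and 84.48 in seized beta4 null mice. All alpha7 +/T mice were above all beta4 null mice, and within both genotypes the low-ratio arrays (alpha7 +/T mice 1 to 3, beta4 null mice 1 and 2) gave the lower values. The log2 difference was 2.14 ± 0.22 (4.42-fold, adjusted p = 1.45e-06), 1.81 among low-ratio and 2.58 among high-ratio arrays. Untreated mice differed by 2.07 ± 0.21, with 179.4 to 444.4 in alpha7 +/T mice, against 47.65 to 102.1 in beta4 null mice. Neither genotype showed a difference between seized and untreated mice that passed (0.08 in alpha7 +/T mice, against 0.00 in beta4 null mice). Seized wild-type mice, all on high-ratio arrays, had 441.2 to 555.1. With class in the fit, seized beta4 null mice were lower than these by 2.44 on the log2 scale (limma, adjusted p = 3.47e-06). Spg21 was the 1 probe set called in that comparison (0.0136%), where 2.93% had an unadjusted p below 0.05. The seized alpha7 +/T mice differed from seized wild-type mice by -0.30 (adjusted p = 1), a comparison in which limma called 0 probe sets (0%), with 335 (4.56%) at an unadjusted p below 0.05. The probe set carries the suffix f_at, which marks probes shared within a sequence family, so other transcripts may add to its signal.

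Antkmt encodes a mitochondrial methyltransferase that modifies the adenine nucleotide translocase. Probe set 161641_at had signals of 85.13, 72.22, 131.1, 88.56 and 97.57 in seized alpha7 +/T mice, against 55.13, 36.91, 60.43 and 43.91 in seized beta4 null mice, with no overlap. The difference was 0.94 ± 0.20 (1.92-fold, adjusted p = 0.0357). The call was lost in 7 of 19 fits without 1 mouse, and the other probe set of the gene, 94933_at, had a difference of -0.07 (adjusted p = 0.908), so the probe sets of Antkmt disagreed. Probe set 102870_at differed by 1.52 ± 0.22 in seized mice (adjusted p = 0.000677), with 985.1 to 3070 in alpha7 +/T mice, against 404.2 to 904.4 in beta4 null mice, and by 0.79 in untreated mice (adjusted p = 0.0146).

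Kcnk1 had the smallest adjusted p of the lower genes. It encodes TWIK-1, a two-pore-domain potassium channel that carries background current. Signals were 536.4, 219.6, 328, 254 and 357.8 in seized alpha7 +/T mice, against 1094, 1142, 501.5 and 569.6 in seized beta4 null mice. Alpha7 +/T mouse 1 reached into the beta4 null range, and the other 4 lay below it. The difference was -1.30 ± 0.22 (2.46-fold lower, adjusted p = 0.00772), -1.73 among low-ratio and -0.83 among high-ratio arrays. Untreated signals were 535.4 to 883.4 in alpha7 +/T mice, against 462.9 to 601.5 in beta4 null mice, with a difference of 0.20 (adjusted p = 0.574). The change in the difference was -1.49 ± 0.31 (adjusted p = 0.0264), a call lost in 6 of 17 alternatives (with age as a further term, adjusted p = 0.1) and in 5 of 19 fits without 1 mouse. Kcnk1 fell by 1.04 between seized and untreated alpha7 +/T mice (adjusted p = 0.00261). Without seized beta4 null mouse 1 or mouse 2 the adjusted p in seized mice was 0.0883 or 0.0612, with differences of -1.18 and -1.16.

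Ginm1 encodes a single-pass membrane glycoprotein. Signals were 96.68, 28.29, 27.19, 27.73 and 65.87 in seized alpha7 +/T mice, against 124.1, 105.4, 129.5 and 147 in seized beta4 null mice. In 3 of the 5 alpha7 +/T mice the signal was near 28, and the other 2 lay between these and the beta4 null mice. The difference was -1.54 ± 0.28 (2.91-fold lower, adjusted p = 0.0105), -1.44 among low-ratio and -1.69 among high-ratio arrays. Untreated mice had 73.66 to 179.7 in alpha7 +/T mice, against 98.87 to 143.6 in beta4 null mice, a difference of 0.05, and the change in the difference was -1.60 (adjusted p = 0.0384). That call was lost in 8 of 17 alternatives (with age, adjusted p = 0.1) and in 14 of 19 fits without 1 mouse. The seized call was lost without alpha7 +/T mouse 4 (adjusted p = 0.0786) or beta4 null mouse 1 (adjusted p = 0.0883).

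Dusp6 encodes a cytoplasmic phosphatase that dephosphorylates ERK and is itself induced by ERK. Signals were 347.3, 351.2, 344.6, 210.7 and 267.6 in seized alpha7 +/T mice, against 655.1, 476.5, 387.3 and 409 in seized beta4 null mice. The highest alpha7 +/T mouse was below the lowest beta4 null mouse. The difference was -0.70 ± 0.14 (1.63-fold lower, adjusted p = 0.0334), -0.68 among low-ratio and -0.75 among high-ratio arrays. Dusp6 rose by 0.76 ± 0.14 between seized and untreated beta4 null mice (adjusted p = 0.0199) and differed by 0.16 ± 0.14 in alpha7 +/T mice (adjusted p = 0.471). The change in the genotype difference was -0.61 and did not pass (adjusted p = 0.11), and the Dusp6 call was lost in 6 of 19 fits without 1 mouse and with sex as a further term (adjusted p = 0.0588). Probe set 96215_f_at had 145.1 to 294.6 in seized alpha7 +/T mice and 453.8 to 1303 in seized beta4 null mice, a difference of -2.24 ± 0.43 (adjusted p = 0.0172), and its call was lost in 4 of these fits.

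**Figure D2:**
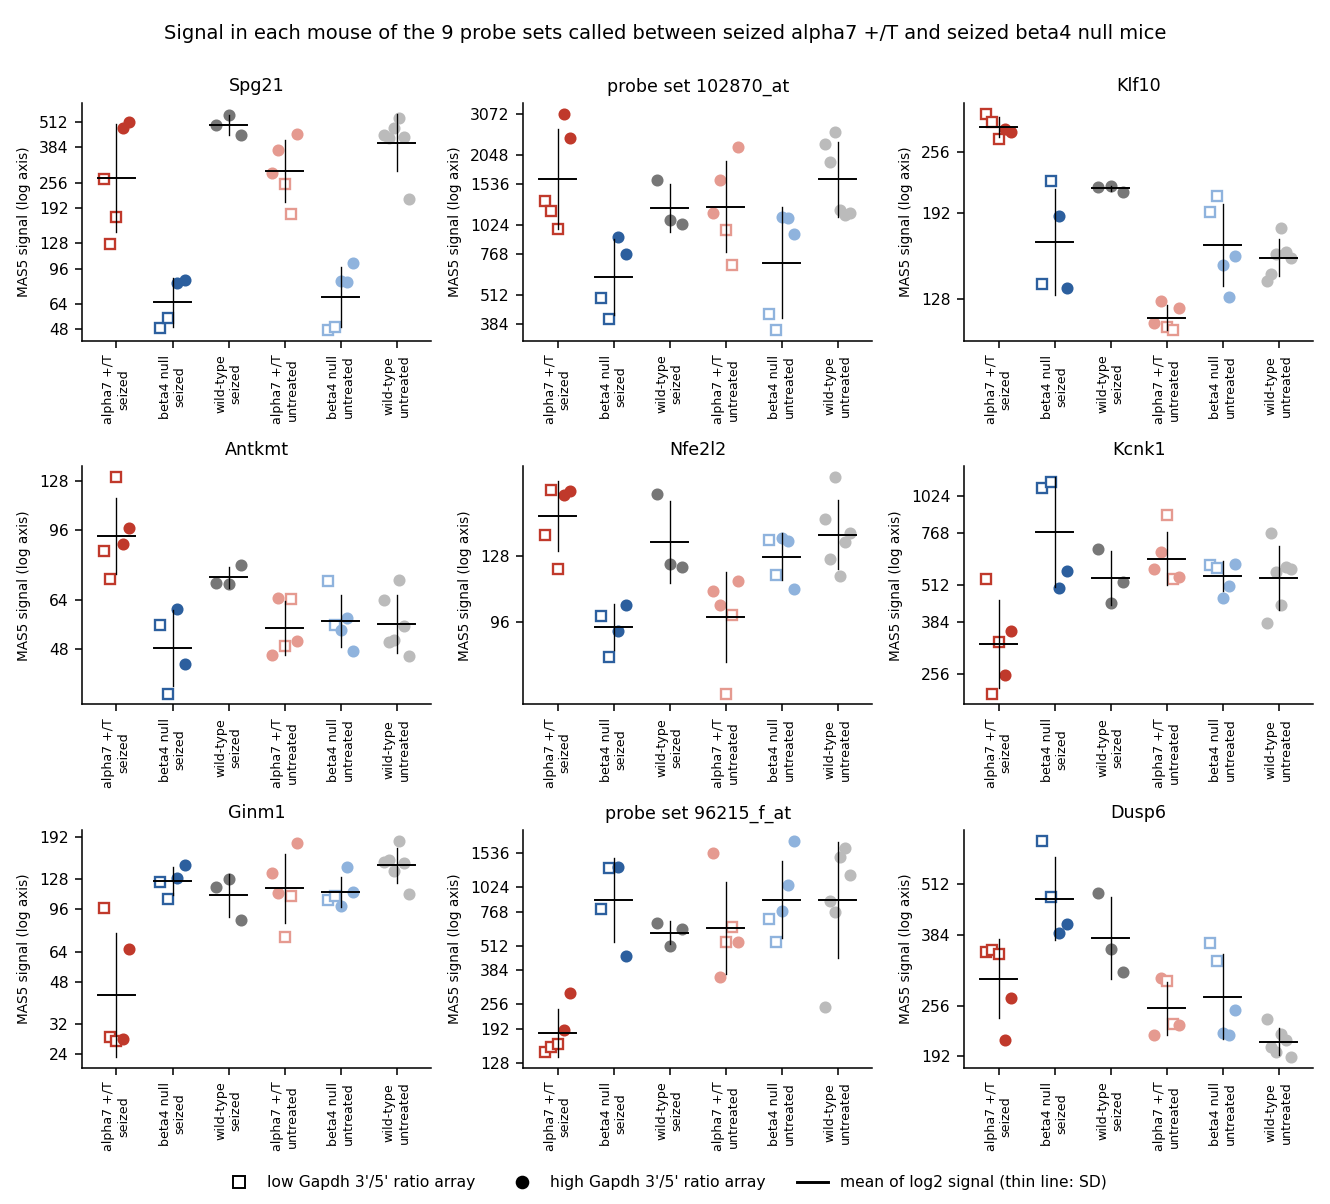
MAS5 signal on a log axis for each mouse, by genotype and treatment, of the 9 called probe sets; open squares are low-ratio and filled circles high-ratio arrays, horizontal lines are means of log2 signal and thin lines their SD. Spg21 was low in beta4 null mice with and without seizure, whereas Klf10 and Nfe2l2 lay higher in seized and lower in untreated alpha7 +/T than in beta4 null mice.

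Promoter sequence, the 250 bases before a listed start of transcription, was read from RefSeq (GRCm38.p6) for 6 of the 7 called genes with 1 pairing; Klf10 was not among them. Windows are shown for the called NRF2 and ERK-phosphatase genes and for the genes with the largest differences in either direction. Each was searched on both strands for motifs of factors that neuronal activity or NRF2 engages: the cyclic AMP response element TGACGTCA and its inner TGACG, which overlaps it, the AP-1 site TGANTCA, the EGR site GCGTGGGCG, the E box CACGTG and the antioxidant response core TGANNNNGC. Capitals mark a match, and the letters run 5 prime to 3 prime on the strand of the gene.
Nfe2l2, chr2:75704664-75704913, minus strand: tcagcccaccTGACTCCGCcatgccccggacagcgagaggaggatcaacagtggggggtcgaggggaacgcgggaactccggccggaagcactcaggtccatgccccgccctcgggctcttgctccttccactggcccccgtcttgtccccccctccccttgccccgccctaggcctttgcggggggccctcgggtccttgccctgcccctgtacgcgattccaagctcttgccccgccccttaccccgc
Dusp6, chr10:99262981-99263230, plus strand: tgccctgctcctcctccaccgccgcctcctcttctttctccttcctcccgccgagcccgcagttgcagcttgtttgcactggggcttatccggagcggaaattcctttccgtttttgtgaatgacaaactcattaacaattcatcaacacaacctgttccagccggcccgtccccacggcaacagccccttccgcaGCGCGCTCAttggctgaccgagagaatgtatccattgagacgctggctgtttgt
Ginm1, chr10:7780918-7781167, minus strand: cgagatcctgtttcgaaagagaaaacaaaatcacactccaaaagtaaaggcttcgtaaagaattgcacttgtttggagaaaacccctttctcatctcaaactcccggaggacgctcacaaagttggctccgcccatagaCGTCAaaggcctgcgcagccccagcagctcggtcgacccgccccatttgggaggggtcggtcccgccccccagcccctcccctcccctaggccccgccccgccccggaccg
Spg21, chr9:65460687-65460936, plus strand: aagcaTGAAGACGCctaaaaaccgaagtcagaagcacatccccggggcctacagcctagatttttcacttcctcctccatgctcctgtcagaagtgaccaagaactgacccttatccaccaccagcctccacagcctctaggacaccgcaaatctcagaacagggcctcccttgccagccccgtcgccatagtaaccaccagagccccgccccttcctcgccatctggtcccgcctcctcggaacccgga
The windows of Nfe2l2, Dusp6 and Spg21 each held the antioxidant response core, which 35.2% of 32851 mouse promoters of this length hold, and that of Ginm1 held TGACG, which 17.8% hold. The full cyclic AMP response element (1.55% of promoters), the AP-1 site (6.75%), the EGR site (0.536%) and the E box (6.02%) were not in these 4 windows. Of the other 2 genes read, Antkmt had 3 windows, 1 for each listed start. Window 1 held the AP-1 site as TGACTCA, 249 bases before its start, and windows 2 and 3 held none of the motifs. The window of Kcnk1 held none of them either. The match in Nfe2l2 lay 240 bases before the start and that in Dusp6 54 bases before it. The Spg21 window belongs to a start that lies inside the gene as the gene table draws it. These are letter matches only.

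Genes that filled the named list without passing the threshold follow by their values. Pts, the pyruvoyl-tetrahydropterin synthase of tetrahydrobiopterin synthesis, had 124 to 155.5 in seized alpha7 +/T mice and 30.07 to 117.1 in seized beta4 null mice, a difference of 1.22 (adjusted p = 0.091), and its untreated difference was 1.29 (adjusted p = 0.00458). Sdhd, a membrane anchor of respiratory complex II, had 616.7 to 1213 in seized alpha7 +/T and 324 to 518.3 in seized beta4 null mice, a difference of 0.88 (adjusted p = 0.099). Both pairs of ranges were free of overlap. Muc13 (1.13), St6galnac2 (0.89), Ndufab1 (-0.48), Ube2r2 (-0.36), Gsk3a (-0.35), Anks3 (-1.0) and 2610524H06Rik (-0.74) had adjusted p-values between 0.0609 and 0.117. After median centring the 5 lower genes of these passed, with adjusted p-values from 0.0108 to 0.0437.

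Of the 8 early genes named here, Klf10 alone passed the test between the seized genotypes. Fos, the AP-1 subunit used as a marker of neuronal firing, had 833.6, 894.8, 655.1, 764.8 and 1067 in seized alpha7 +/T mice, against 1266, 803.2, 1045 and 1079 in seized beta4 null mice. The ranges overlapped, with a difference of -0.30 ± 0.37 (adjusted p = 0.855), while untreated mice had 54.37 to 398.6 in alpha7 +/T mice, against 140.9 to 487.1 in beta4 null mice. Nr4a1, an orphan nuclear receptor, differed by -0.57 ± 0.25 and Egr1, a zinc-finger factor, by -0.38 ± 0.15; all 5 seized alpha7 +/T values of Egr1 were below all beta4 null values, and neither gene passed (adjusted p = 0.492 and 0.447). Fosb (0.29), Junb (-0.07), the kinase gene Sgk1 (0.09) and the clock gene Per1 (0.02) had adjusted p-values of 0.745 or more. A second Junb probe set, 102362_i_at, had -0.45 (limma, adjusted p = 0.838). Median centring turned Sgk1 to -0.05 and Per1 to -0.12. Of 18 immediate early transcription factors tested, 1 was called, Klf10, higher, against 0.107% of genes called at 1 probe set per gene. At an unadjusted p below 0.05, 1 was higher and 3 lower, beside 5.25% and 3.68% of all genes. Their median difference was -0.01, beside 0.01 over all genes, and Ier2 had the lowest value (-0.80, adjusted p = 0.429).

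Of 8 MAP kinase feedback genes 1 was called, Dusp6, lower; Dusp1 had -0.67 (adjusted p = 0.53), and Spry4 (0.49) and Dusp16 (0.52), inhibitors of the same pathway, had positive values that did not pass. Of all genes 0.107% were called; at an unadjusted p below 0.05 the list had 2 higher and 2 lower members, beside 5.25% and 3.68% of all genes, and its median was 0.10. Of 16 activity-regulated effectors none was called by limma, with Plk2 at -0.49 and Gadd45b at 0.74, and 3 had an unadjusted p below 0.05; a second Gadd45b probe set had 0.23. Of 17 glucocorticoid-responsive genes none was called in seized mice (median 0.01, 2 with an unadjusted p below 0.05), whereas 5 were called lower in untreated alpha7 +/T than in untreated beta4 null mice (median -0.37), where 13% of genes were called, 5.14% higher and 7.88% lower. Of 17 clock genes none was called, 3 had an unadjusted p below 0.05, and the median was 0.17; the change in the difference was called for 2, beside 0.982% of all genes. The smallest p-values were those of Per2 (0.69), Cry1 (0.38) and Per3 (0.44), which encode repressors of the clock.

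Receptor, channel and metabolic genes were examined next. Chrna7, the subunit that carries the L250T allele, had 120.5, 89.33, 78.87, 94.29 and 30.73 in seized alpha7 +/T mice, against 83.78, 91.94, 67 and 78.82 in seized beta4 null mice, a difference of -0.16 ± 0.36 (adjusted p = 0.927). A transcript level does not test for a base substitution, and Chrnb4 was not analysed here. Of 28 channel genes in the voltage-gated channel list, 1 was called, Kcnk1, which is itself a leak channel, against 0.107% of all genes. At an unadjusted p below 0.05, 2 were higher and 3 lower, beside 5.25% and 3.68% of all genes. Kcnd2, an A-type potassium channel subunit, had 0.68 (adjusted p = 0.193) and Cacna1g, a T-type calcium channel, -0.51 (adjusted p = 0.331). The change in the Kcnd2 genotype difference, seized minus untreated, was 1.17 and was called. It did not pass with age as a further term (limma, adjusted p = 0.128). Of 16 GABA and chloride genes, 13 glutamate genes, 37 synaptic vesicle genes and 21 neuropeptide genes none was called, with 2, 0, 1 and 2 at an unadjusted p below 0.05, against 8.93% of all genes.

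None of 5 housekeeping lists held a called gene, beside 0.107% of all genes. Oxidative phosphorylation genes had a median of -0.09, with 43 of 61 below 0 and 13 at an unadjusted p below 0.05, 4 of them higher and 9 lower, beside 48.5% of all genes below 0 and 8.93% at an unadjusted p below 0.05 (5.25% higher, 3.68% lower). Sdhd (0.88), Ndufb7 (-0.54), Ndufa7 (-0.48) and Ndufc1 (-0.42) had the smallest p-values. Ribosomal protein genes had a median of -0.14, with 19 of 24 below 0 and Rpl13a at -0.49 (adjusted p = 0.224). Proteasome and ubiquitin genes had a median of -0.11, with 29 of 46 below 0. Translation factors had a median of 0.07, with 12 of 31 below 0, and heat shock proteins and chaperones one of 0.03, with 15 of 34 below 0. The median over all genes was 0.01, and after median centring the medians of the oxidative phosphorylation, ribosomal and proteasome lists were -0.24, -0.28 and -0.26 beside -0.13 for all probe sets.

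**Figure D3:**
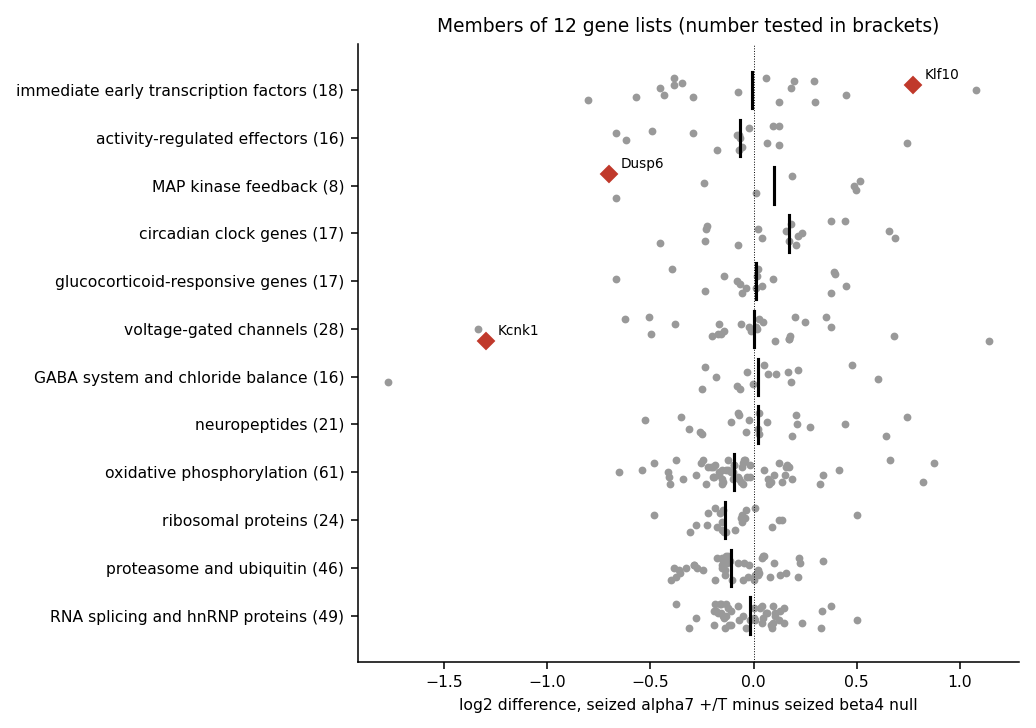
Log2 difference of seized alpha7 +/T minus seized beta4 null mice for each tested member of 12 gene lists; black bars are list medians and red diamonds are called genes. Klf10, Dusp6 and Kcnk1 are the called members, and list medians lie between -0.14 and 0.17.

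Summed markers of cell types and regions overlapped between the seized genotypes. None of 15 such lists held a called gene, beside 0.107% of all genes, so a call was unlikely in lists this short. Neuron markers ran from 12300 to 15670 in seized alpha7 +/T and from 13210 to 16400 in seized beta4 null mice. Microglia markers ran from 2301 to 2693 in seized alpha7 +/T and from 2415 to 2671 in seized beta4 null mice. Astrocyte markers summed to 6900 to 8154 in seized alpha7 +/T and 7460 to 8072 in seized beta4 null mice, and oligodendrocyte markers to 7430 to 8772 in seized alpha7 +/T and 7492 to 9077 in seized beta4 null mice. Of 9 retina markers 1 was tested, with a signal of at most 53.19 in seized alpha7 +/T and 39.26 in seized beta4 null mice. Pituitary markers summed to 258.9 to 10980 in seized alpha7 +/T mice, through mouse 2, and to 242.5 to 516.1 in seized beta4 null mice. Without seized alpha7 +/T mouse 2, 7 probe sets were called, and Nfe2l2 (adjusted p = 0.115) and Dusp6 (0.0547) were the ones lost.

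Untreated mice of the same genotypes were compared to see which differences were present without nicotine. There 938 of 7350 probe sets were called (12.8%), 374 higher (5.09%) and 564 lower (7.67%) in alpha7 +/T than in beta4 null mice. Age moved with genotype in that comparison, and with age as a further term 100 were called. Of the 9 probe sets called in seized mice 3 were also called in untreated mice (33.3% of the seized and 0.32% of the untreated calls): Spg21 and 102870_at in the same direction and Klf10 in the opposite one. The seized and untreated comparisons share no array.

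The change in the genotype difference, seized minus untreated, was called for 69 probe sets (0.939%), 48 higher (0.653%) and 21 lower (0.286%). Of these, 59 were called in untreated mice and 4 in seized mice, and 57 had the larger difference in untreated mice. Gad1, which encodes the GABA-synthesising enzyme GAD67, is an example: signals were 2257, 2198, 2144, 2284 and 2024 in seized alpha7 +/T mice, against 1876, 1894, 1980 and 1773 in seized beta4 null mice. All seized alpha7 +/T mice were above the beta4 null mice by a difference of 0.22 (adjusted p = 0.398). In untreated mice the order was opposite, with 1505 to 1886 in alpha7 +/T mice, against 2013 to 2158 in beta4 null mice and a difference of -0.34 (adjusted p = 0.00702). The period gene Per2 (0.69 in seized, -0.86 in untreated mice), Lamp2 of the lysosomal membrane (0.65 and -0.78), Pcm1 of centriolar satellites (0.41 and -1.37) and Eloc, elongin C (0.29 and -0.99), had the same pair of signs, though the other Eloc probe sets had -0.08 and -0.11 in seized mice. Kcnk1 and Ginm1 were called lower in seized mice and had 0.20 and 0.05 in untreated mice. Of the untreated alpha7 +/T mice 4 were 6 weeks old, and all seized ones were 8 weeks old. The count fell to 3 with age as a further term and to 2 without the class term. With age, Klf10 and Nfe2l2 (limma, both adjusted p = 0.0144) were the 2 of the 14 named genes that still passed. Mice of 7 weeks or older included 1 untreated alpha7 +/T mouse, so no count is given for them.

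**Figure D4:**
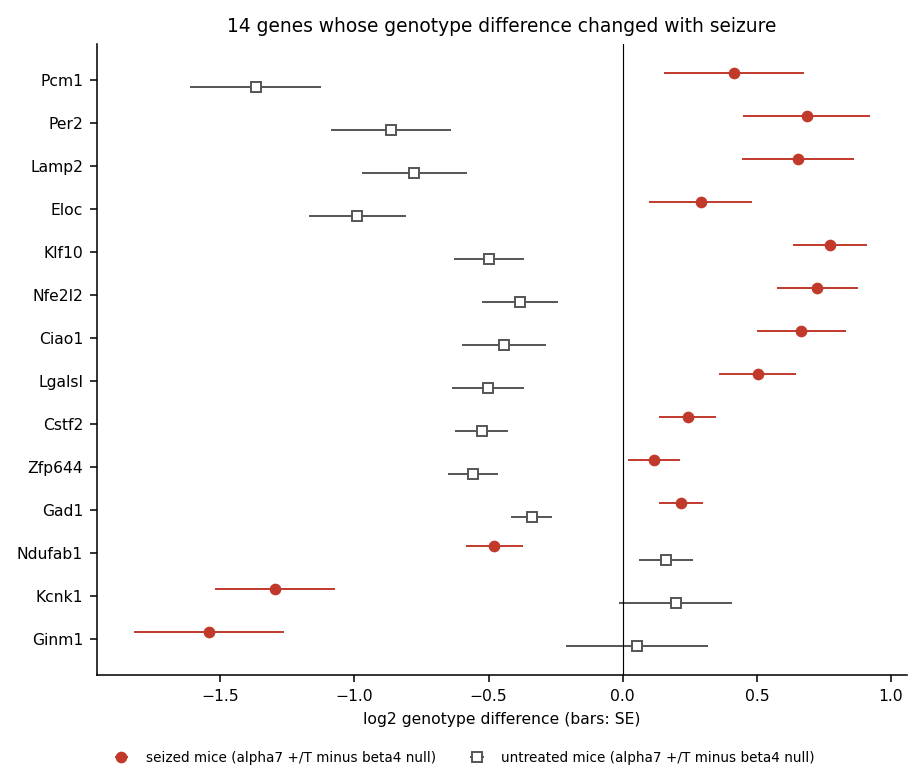
Log2 difference of alpha7 +/T minus beta4 null mice in seized mice (red circles) and in untreated mice (open squares), with SE, for 14 named genes whose genotype difference was not the same in seized and untreated mice (adjusted p below 0.05). In 11 genes the seized difference is positive and the untreated one negative, and Ndufab1, Kcnk1 and Ginm1 have the opposite signs. Most genes drawn were chosen by the adjusted p of this change. Of all 69 probe sets called for it, 68 had opposite signs in seized and untreated mice.

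Because both alleles were placed in the germ line by gene targeting, the genes beside them were examined by their order on the chromosome. Among the 100 genes on either side of Chrnb4 on chromosome 9, 62 were tested, none was called in seized mice, 9 (14.5%) had an unadjusted p below 0.05, 7 of them higher, and 15 (24.2%) were called in untreated mice, beside 8.93% and 13% of all genes. Pts lay 59 genes and Sdhd 55 genes before Chrnb4. Spg21, 123 genes after it, was the 1 called gene when 200 genes on either side were taken (118 tested), beside 0.107% of all genes. Of those 118 genes 14.4% had an unadjusted p below 0.05. Among the 100 genes on either side of Chrna7 on chromosome 7, 57 were tested, none was called in seized mice and 3 (5.26%) had an unadjusted p below 0.05, Tjp1 among them (-0.59, 13 genes after Chrna7, adjusted p = 0.153). In untreated mice 3 (5.26%) of these genes were called. With 200 genes on either side of Chrna7, 103 were tested and none was called in seized mice. Of those 103 genes 10.7% had an unadjusted p below 0.05, so the share depended on the window. The part of linked sequence in the Spg21 difference was not tested.

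**Figure D5:**
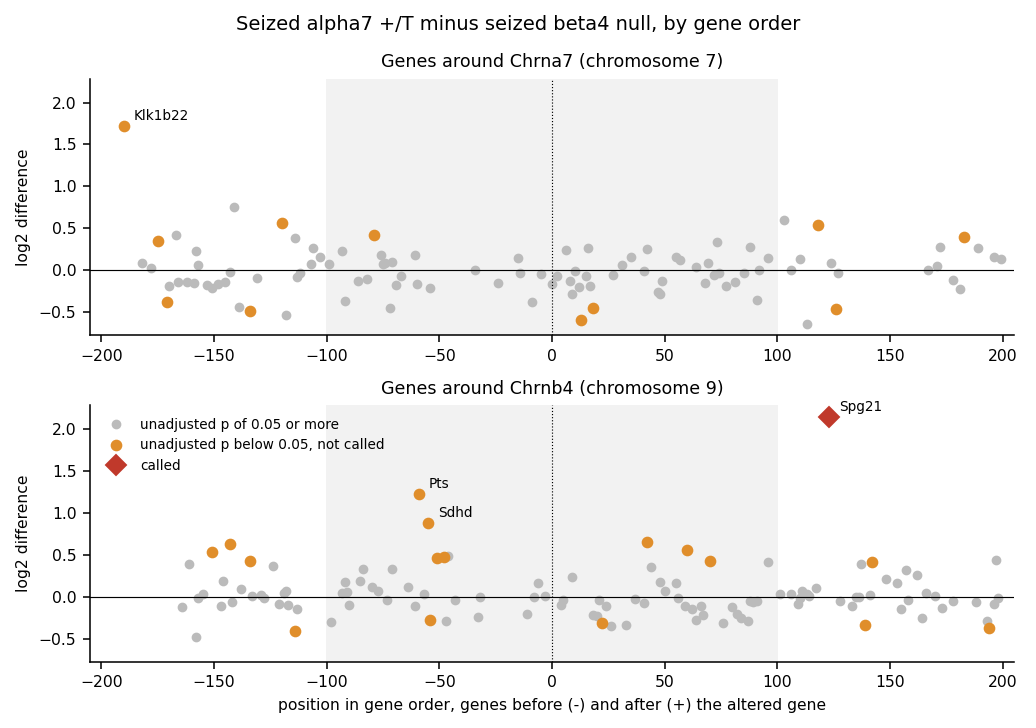
Log2 difference of seized alpha7 +/T minus seized beta4 null mice by position in gene order around Chrna7 (chromosome 7, upper panel) and Chrnb4 (chromosome 9, lower panel); the shaded band covers 100 genes on either side. Spg21, 123 genes after Chrnb4, is the 1 called gene, and Pts and Sdhd stand out before Chrnb4.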

How the data were processed

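Biotin-labelled whole-brain RNA was hybridised to 28 arrays, 1 per mouse. The deposited values are signal intensities from MAS5, per the submitters' processing notes, which name no version; probe-level files were not used here. Of 12488 probe sets, 10833 were paired with 1 gene, 396 with several and 1193 were not listed. From the deposited signal, log2 values were fitted with limma 3.58.1 (R 4.3.3, lmFit and eBayes with trend) on all 28 arrays, with 6 group means and the array class (log2 Gapdh ratio below 0.5) as terms. The 7350 probe sets above the array median in at least 3 arrays were tested, with Benjamini-Hochberg adjustment over all of them and a threshold of 0.05. The number of arrays limits the precision. Simulated data with 7350 probe sets held 100 log2 changes of 0.5 and 100 of 1, with noise drawn separately for each probe set. Of these, 21% and 82% were recovered, and 5.5% of the 109 calls were unchanged probe sets. The real comparison gave 9 calls, so its cutoff on the unadjusted p was stricter. The simulated shares therefore do not carry over to it. The labels do not say that mice came from separate litters, so p-values measure the spread between these mice. The title prefix goes with genotype among the mutants, so a colony or processing batch and genotype cannot be told apart.

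The members and gene lists were chosen with earlier results of these data known. Named genes were up to 15 called genes in each direction with the smallest adjusted p, filled to 8 by unadjusted p, up to 12 genes with the smallest adjusted p for the change in the difference, the measured acetylcholine receptor genes, the 8 early genes, up to 4 members of each list described, and genes called beside the targeted loci. Gh, Prl, Xist, Eif2s3y, Tjp1 and the probe sets without 1 gene were named after their values were seen. Lists used 1 probe set per gene.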

Additional observations from a re-analysis of the deposited data

Results flagged for a closer look

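For 14 of 37 probe sets examined, the genotype difference was not the same in seized and untreated mice (limma, adjusted p below 0.05). This difference is alpha7 +/T minus beta4 null. Up to 12 of these genes were named for the smallest adjusted p of this change, so the count is no result about them. Over all genes 0.982% were called. The change in the log2 difference was 1.27 for Klf10, 1.11 for Nfe2l2, 0.768 for Cstf2 (an RNA cleavage factor), 1.01 for Lgalsl, 1.43 for Lamp2, 0.675 for Zfp644, 1.78 for Pcm1, 0.555 for Gad1, 1.28 for Eloc, 1.11 for Ciao1 (iron-sulfur protein assembly) and 1.55 for Per2. It was -1.49 for Kcnk1, -1.6 for Ginm1 and -0.642 for Ndufab1, an acyl carrier protein of complex I. With age as a further term, 2 of the 14, Klf10 and Nfe2l2, still passed (both adjusted p = 0.0144), and the other 12 had adjusted p-values from 0.1 to 0.148. Over 17 alternatives the call was lost in 2 for Klf10, 5 for Nfe2l2, Lamp2, Eloc and Ciao1, 6 for Cstf2, Lgalsl, Zfp644, Pcm1, Kcnk1 and Per2, 7 for Gad1, and 8 for Ginm1 and Ndufab1. Of the 17, the fit of mice of 7 weeks or older held 1 untreated alpha7 +/T mouse. Over 19 fits without 1 mouse the call was lost in 0 for Klf10, in 3 to 7 for 11 others, in 10 for Ndufab1 and in 14 for Ginm1. Other probe sets of Lamp2 (100136_at, 0.60, adjusted p = 0.314) and Eloc (94009_at, 0.37, and 94010_g_at, 0.54) did not pass. Kcnd2, not among the 14, also had a called change (1.17). That call was lost with age (limma, adjusted p = 0.128), in 6 of the 17 alternatives and in 12 of the 19 fits without 1 mouse.

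Single mice far from the rest of their group were found in 3 of 148 groups examined, where chance flags about 1 in 20. Seized beta4 null mouse 3 had a Cstf2 signal of 491, against 359 to 373 in the other 3. Untreated beta4 null mouse 3 had 100 for Per2, against 64.9 to 71.6, and 35.8 for St6galnac2, against 53.2 to 59.2. The same mouse is labelled male and had Xist at 9.95 and Eif2s3y at 7.46; without it the untreated count was 619 and the count of changed differences 23.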

How the results depend on the processing

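The 9 called probe sets kept their direction in seized mice under 19 alternatives and in 19 fits without 1 mouse. Of the uncalled genes named, 4 with values near 0 turned sign: Chrna7 with sex (0.062) and on low-ratio arrays (0.11), Junb with sex (0.064), Sgk1 on low-ratio arrays (-0.040) and after median centring (-0.053), and Per1 with sex (-0.093), on high-ratio arrays (-0.054) and after median centring (-0.12). Without 1 mouse Chrna7 ran from -0.40 to 0.080, Junb from -0.31 to 0.16, Sgk1 from -0.11 to 0.24 and Per1 from -0.077 to 0.12. Spg21 lost its call in 1 alternative (low-ratio arrays only, adjusted p = 0.0694) and Kcnk1 in 4, Klf10 and Ginm1 in 5, Dusp6 in 8, Antkmt in 9 and Nfe2l2 in 10. The 9 probe sets called between seized alpha7 +/T and seized beta4 null mice became 5 without the class term, 3, 4 and 5 with only the 9 seized mutant, 12 seized or 19 mutant arrays, 4 on low-ratio and 1 on high-ratio arrays, 24 after median centring, 38 with array weights (21 higher, 17 lower), 7 with sex and 16 (8 higher, 8 lower) among mice of 7 weeks or older, a setting chosen after seeing the data. Leaving out 1 mouse gave 2 (seized beta4 null mouse 1) to 15 (seized alpha7 +/T mouse 1), with 3 without seized alpha7 +/T mouse 4 and 5 without seized beta4 null mouse 2. The 938 untreated calls became 182 without the class term, 1473 with the Gapdh ratio as a covariate, 100 with age, 597 and 1 on low-ratio and high-ratio arrays, 14 among mice of 7 weeks or older (4 of them shared) and 412 (without beta4 null mouse 2) to 1592 (without alpha7 +/T mouse 5); median centring gave 177 higher and 946 lower. The 69 changed differences became 2 without the class term or with 19 mutant arrays, 272 with the Gapdh ratio, 179 with sex and 3 with age. They became 40 without the filter or without the trend, 327 with array weights, and 0 by limma on high-ratio arrays (645 at an unadjusted p below 0.05). Median centring gave 30 higher and 25 lower. Leaving out 1 mouse gave 2 (untreated alpha7 +/T mouse 3, untreated beta4 null mouse 1 or seized beta4 null mouse 4) to 559 (untreated alpha7 +/T mouse 5). The count beside Chrnb4 was 1 with 200 genes on either side. Where an alternative used fewer arrays, fewer samples entered the fit; otherwise the cause was not tested. No paired analysis was possible because the titles hold mouse identifiers and no replicate numbers.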

Other observations

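Some genes not named above had separate ranges or wide spread in seized mice without passing. Gabra2 and Pdyn among them belong to the GABA and neuropeptide lists. H2-Q10, a non-classical MHC class I gene, had 72.61, 69.2, 82.99, 70.9 and 54.83 in seized alpha7 +/T mice, against 51.79, 33.34, 35.86 and 33.67 in seized beta4 null mice, a difference of 0.85 (adjusted p = 0.157). Gabra2, a subunit of the GABA-A receptor, had 55.73, 42.92, 65.5, 9.923 and 6.196 in seized alpha7 +/T mice, against 102.2, 160, 43.66 and 52.95 in seized beta4 null mice. The values 9.923 and 6.196, both of high-ratio arrays, lay below 11.52, the 25th percentile of all signals. The Gabra2 difference was -1.77 (adjusted p = 0.35), and in untreated mice it was -2.00 (adjusted p = 0.0252). Pdyn, which encodes the prodynorphin precursor of opioid peptides, had a difference of 0.64 (adjusted p = 0.224) by probe set 161987_at and of -0.25 (adjusted p = 0.914) by probe set 99840_at, so its probe sets disagreed.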
